A study of Mus musculus with 60 samples.

Results

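Besides huntingtin, a small set of other genes carries a CAG repeat that causes a polyglutamine disease when it expands in humans. The 7 examined here were Atxn1, Atxn2, Atxn3, Atxn7, Cacna1a, Tbp and Atn1. They were chosen by gene name, and together they hold 8 of the 47574 gene entries used, because Atn1 is listed under 2 identifiers. Their RNA was measured in 60 brain libraries of C57BL/6N mice aged 3 months, in 10 labelled groups of 6 (3 males and 3 females each). Mice of the Δ12 line were +/+, Δ12/+ or Δ12/Δ12, where Δ12 is an Htt allele with a deletion within exon 12, made by genome editing in embryonic stem cells. Mice of the KO line were +/+ or KO/+, where KO is an Htt null allele, and each of these 5 genotypes was labelled both as cortex and as striatum. The labels name edited alleles of Htt only and say nothing about repeats in the 7 genes.

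The proteins of these genes have different roles, some of them in transcription, and the genes are grouped by the CAG repeat that expands in human disease. Ataxin-1 (Atxn1, spinocerebellar ataxia type 1) is a transcriptional regulator that works with the repressor Capicua, ataxin-2 (Atxn2, type 2) binds RNA and the poly(A)-binding protein, and ataxin-3 (Atxn3, type 3) is a deubiquitinating enzyme of protein quality control. Ataxin-7 (Atxn7, type 7) belongs to the SAGA transcription coactivator. Cacna1a (type 6) encodes the pore of the Cav2.1 calcium channel, which triggers transmitter release, Tbp (type 17) the TATA-binding protein, and Atn1 (dentatorubral-pallidoluysian atrophy) atrophin-1, a transcriptional corepressor.

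The longest in-frame run of CAG or CAA codons in the mouse reference was taken for 6 of the genes from the protein-coding GENCODE M21 transcript (GRCm38) with the longest coding sequence. The runs are shown because these genes are grouped after a CAG repeat in humans. Each run is in capitals, with 4 codons on each side, and Htt is given for comparison. Where several runs tied, the first is shown.
Tbp: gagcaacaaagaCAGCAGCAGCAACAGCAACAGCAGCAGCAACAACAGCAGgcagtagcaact
Htt: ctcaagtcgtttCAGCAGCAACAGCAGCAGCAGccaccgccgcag
Atxn3: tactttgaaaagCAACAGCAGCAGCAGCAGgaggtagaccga
Atxn7: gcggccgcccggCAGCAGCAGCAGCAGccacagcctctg
Cacna1a: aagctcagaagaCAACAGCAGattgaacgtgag
Atxn1: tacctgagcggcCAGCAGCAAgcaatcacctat
Atxn2: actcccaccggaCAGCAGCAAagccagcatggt

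Tbp held the longest run, 13 codons in exon 4 (chr17:15504391-15504429, plus strand), of which 9 were CAG and 4 CAA. The run of Htt spanned 7 codons in exon 1 (chr5:34761958-34761978, plus strand). Atxn3 had 6 codons in exon 10 (chr12:101926563-101926580, minus strand) and Atxn7 had 5 in exon 2 (chr14:14013156-14013170, plus strand). In Atxn1 (exon 7, chr13:45567080-45567088, minus strand), Atxn2 (exon 22, chr5:121810946-121810954, plus strand) and Cacna1a (exon 8, chr8:84536122-84536130, plus strand), no run exceeded 3 codons. All 7 runs lay within coding exons, and whether a run corresponds to the human disease tract was not examined. Glutamine codons made up 11.1% of the coding sequence of Tbp and 3.63% of that of Cacna1a, the ends of the range over the 6 genes. These are reference sequences, and the deposited tables hold no repeat lengths of the mice.

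The libraries did not follow their tissue labels. Libraries with more than 100 FPKM (fragments scaled to transcript length and to the mapped total, as deposited) of Slc17a7, the vesicular glutamate transporter of cortical excitatory neurons, were taken as cortex-like, and the rest as striatum-like. The 30 cortex-like libraries were all +/+ and Δ12/+ libraries of the Δ12 line and the labelled males of Δ12/Δ12, and the 30 striatum-like libraries were the labelled females of Δ12/Δ12 and the whole KO line. Each class held 15 libraries labelled cortex and 15 labelled striatum. Slc17a7 lay at 120.8 to 233.8 FPKM in the cortex-like and 4.81 to 64.8 FPKM in the striatum-like class, and 30 of 60 libraries matched their labelled sex by Xist and Ddx3y. No library was moved, and groups are named by their labels. Whether the line and genotype labels are right was not tested, and the genotype comparisons below rest on them. Estimated depth was 12700000 to 27500000 fragments per library, with medians of 14400000 in the cortex-like and 18200000 in the striatum-like class, and the summed FPKM had class medians of 3.71e+07 and 2.63e+06. Line, class and these properties of the libraries therefore largely coincide and cannot be told apart. Within the Δ12/Δ12 groups the labelled line is the same, but class still coincides with labelled sex. Summed FPKM did not overlap there either, at 4.65e+06 or more in the cortex-like and 4.19e+06 or less in the striatum-like libraries.

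All levels below are FPKM rescaled between libraries by the median of ratios. FPKM is per transcript length, so levels of different genes can be compared. In the cortex-like class the order of median levels was Atxn1 (28.0), Atxn2 (25.8), Cacna1a (10.9), Atxn3 (8.88), Tbp (6.83), Atn1 (4.32) and Atxn7 (1.00). In the striatum-like class it was Atxn2 (27.2), Cacna1a (25.6), Atxn1 (21.2), Atn1 (19.8), Tbp (5.14), Atxn3 (4.21) and Atxn7 (3.06). In that class the ranges of the first 4 genes overlapped from one neighbor to the next, as did those of Tbp and Atxn3 and of Atxn3 and Atxn7, and between Atn1 (lowest 16.6) and Tbp (highest 7.01) no library lay. In the cortex-like class the ranges of every pair of neighbors overlapped except those of Atxn2 (lowest 16.3) and Cacna1a (highest 16.1), and those of Atn1 and Atxn7 overlapped through 1 library with Atn1 at 5.9e-05. Levels varied less within the striatum-like class, with coefficients of variation of 7.85% to 13.9% over the 7 genes, than within the cortex-like class, with 15.7% to 40.4%.

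**Figure D1:**
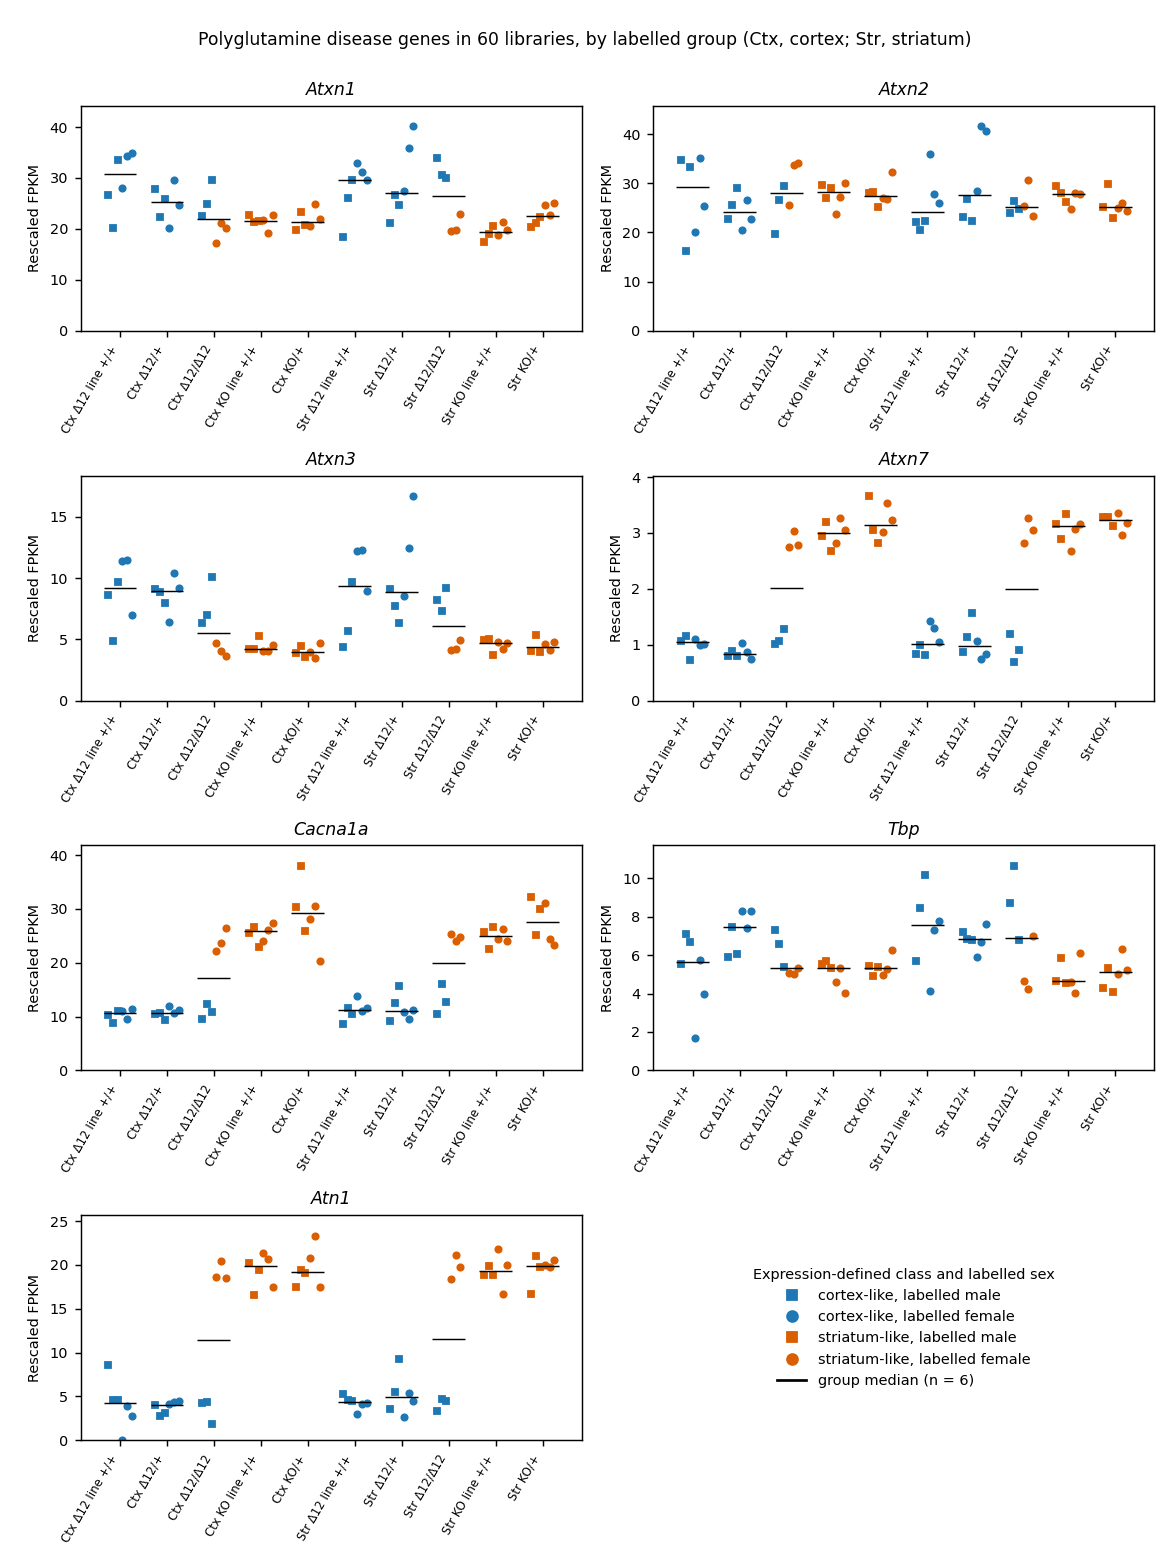
Rescaled FPKM of the 7 genes (vertical axes, linear) in the 60 libraries by labelled group (horizontal axes), with squares for labelled males, circles for labelled females, color for expression-defined class and a bar for the median of 6. Atn1, Cacna1a and Atxn7 form separate low and high bands that follow the class, and both bands occur within the Δ12/Δ12 groups.

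Atn1, Atxn7 and Cacna1a were higher in the striatum-like class, with no overlap between the classes. Since the class was defined by the expression of a marker gene, these levels are descriptions and were not tested. Among all 16076 genes considered, 19.3% had non-overlapping ranges with the striatum-like class higher and 16.9% with the cortex-like class higher, so that 3 of 7 in the first direction and 0 of 7 in the second stand against a background in which such separation is common. The median log2 difference between classes was 0.07 over the 7 genes and 0.03 over all genes. In bulk RNA, fewer cells of a type and less RNA per cell cannot be told apart.

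Atn1 had the largest class difference of the 7. It ranged from 5.9e-05 to 9.23 with a median of 4.32 in the cortex-like libraries and from 16.6 to 23.3 with a median of 19.8 in the striatum-like libraries, a ratio of medians of 4.58. On the log2 scale, with 0.5 added, the difference was 2.07, and 8.98% of all genes differed more in either direction. The measurement was less precise where Atn1 was low: the upper bound of the deposited interval lay 35.4% above the value in the median cortex-like library and 12.6% in the median striatum-like library.

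The near-zero Atn1 value belonged to 1 library, labelled cortex +/+ female 1 of the Δ12 line. In that library the second Atn1 entry (ENSMUSG00000107478, chr6:124739189-124756021), which overlaps the first (ENSMUSG00000004263, chr6:124742544-124756524), stood at 1.95, and in the other 59 libraries it did not exceed 0.213. How fragments of the shared region were assigned to the 2 entries is not stated, so the low value is uncertain, and the sum of both entries was used as an alternative chosen after the data were seen.

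Atxn7 ranged from 0.694 to 1.56 (median 1.00) in the cortex-like class and from 2.68 to 3.66 (median 3.06) in the striatum-like class, a ratio of 3.06. Cacna1a ranged from 8.56 to 16.1 (median 10.9) and from 20.4 to 38.0 (median 25.6), a ratio of 2.34. As deposited, without rescaling, the classes still separated for Atn1 and Atxn7, and overlapped for Cacna1a.

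Atxn3 went the other way. It ranged from 4.40 to 16.7 (median 8.88) in the cortex-like class and from 3.47 to 5.37 (median 4.21) in the striatum-like class, with 2 cortex-like libraries inside the striatum-like range. The ratio of cortex-like to striatum-like medians was 2.11. In the FPKM as deposited the classes did not overlap.

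Atxn1, Tbp and Atxn2 had wide overlap. Atxn1 had medians of 28.0 (18.5 to 40.2) and 21.2 (17.3 to 25.2) in the cortex-like and striatum-like classes, and Tbp had medians of 6.83 (1.69 to 10.7) and 5.14 (4.03 to 7.01). For Atxn2 the medians were 25.8 (16.3 to 41.6) and 27.2 (23.0 to 34.1), and all 30 striatum-like libraries lay within the cortex-like range. The Atxn1 difference of -0.39 on the log2 scale came to -0.035 after quantile normalization, and the Atxn2 difference of 0.07 turned to -0.24 in the FPKM as deposited, where the median over all genes was itself -0.19.

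**Figure D2:**
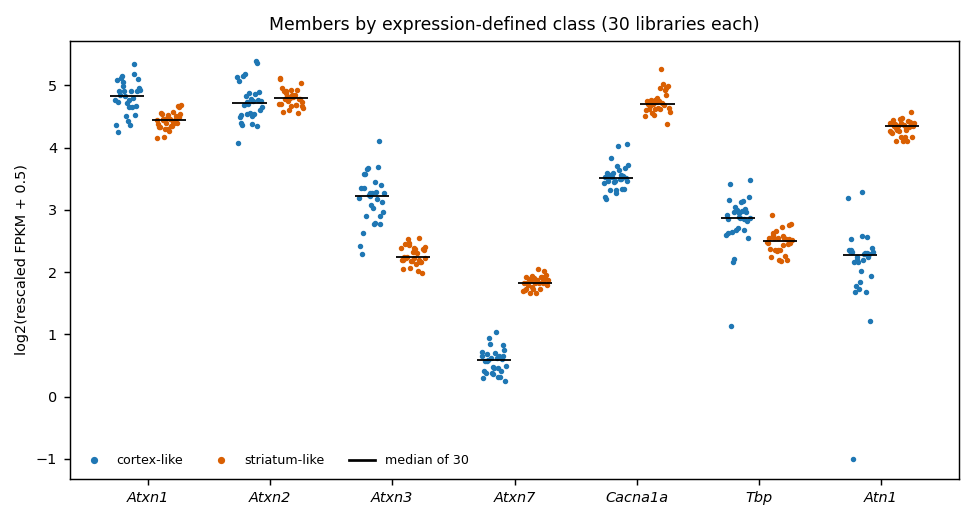
Level of each gene as log2(rescaled FPKM + 0.5) in the 30 cortex-like and 30 striatum-like libraries, each point 1 library and each bar the median of 30. The classes are apart for Atxn7, Cacna1a and Atn1, and the lowest Atn1 point is the library whose second Atn1 entry is high.

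Markers of several cell types differed between the classes as well. The summed level of 8 striatal neuron markers was 92.2 to 466.5 in the cortex-like and 896 to 1820 in the striatum-like libraries, and all 8 separated the classes. Of 6 cortical neuron markers, 5 had the higher median in the cortex-like class, and their sum was 120.8 to 229.6 against 11.4 to 91.2. Other cell types differed too: 4 measured oligodendrocyte markers summed to 252.3 to 517.9 and 644.4 to 1071, and 3 choroid plexus markers to 1.63 to 373.8 and 31.7 to 2074. Of the oligodendrocyte markers, 3 had the higher median in the striatum-like and 1 in the cortex-like class. The 4 astrocyte and the 4 microglia markers did not move as lists. In each list 2 had the higher median in the cortex-like and 2 in the striatum-like class. No astrocyte marker separated the classes. Of the microglia markers, 2 separated them with the striatum-like class higher (Cx3cr1 and Csf1r) and 1 with the cortex-like class higher (C1qa). Of 3 cerebellar markers, Pcp2 and Gabra6 had class medians of 0 in both classes, and Cbln1 medians of 2.11 and 1.02. The part of these cell types in the levels of the 7 genes was not tested.

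The Δ12/Δ12 libraries held both classes within 1 labelled line and genotype. The 6 cortex-like libraries of Δ12/Δ12 had Atn1 at 1.81 to 4.75, and the 6 striatum-like libraries at 18.4 to 21.2, inside the range of the 24 KO-line libraries (16.6 to 23.3). For Atxn7 these ranges were 0.694 to 1.28 and 2.74 to 3.27, and for Cacna1a 9.55 to 16.1 and 22.1 to 26.4. Atxn3 also separated within Δ12/Δ12, at 6.33 to 10.1 in the cortex-like and 3.66 to 4.96 in the striatum-like libraries. Atxn1, Atxn2 and Tbp overlapped there. The separation therefore appeared inside a single labelled line as well as between labelled lines.

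The study asked whether the Δ12 allele changes expression compared with +/+ littermates, and this was examined per labelled tissue with limma on log2(rescaled FPKM + 0.5), labelled sex being the covariate, and p-values were adjusted over all genes by Benjamini-Hochberg. In labelled striatum, Cacna1a was the only 1 of the 7 to pass the threshold between Δ12/Δ12 and +/+. It measured 8.56, 11.5, 10.5, 13.8, 11.0 and 11.6 in the +/+ libraries. In the Δ12/Δ12 libraries it measured 10.5, 16.1 and 12.7 in labelled males and 25.4, 24.0 and 24.8 in labelled females. Of the labelled males of Δ12/Δ12, 2 lay within the +/+ range and 1, at 16.1, above it, and the 3 labelled females were above every +/+ library and every labelled male. The log2 fold change was 0.67 (SE 0.16, 95% interval 0.32 to 1.02, adjusted p = 0.0306, limma), where 28.3% of 15467 genes passed, 2278 of 4381 called genes being higher (1291 of 4336 in the FPKM as deposited). That background was itself unstable: 5 to 33 genes were called without any 1 of the 6 labelled female libraries, 9 without the sex covariate and 21 with the expression class as a covariate. The call was lost with the expression class as a covariate (0.34, adjusted p = 0.395), without the sex covariate (adjusted p = 0.131), and without any 1 of the 6 labelled female libraries (adjusted p of 0.0712 to 0.0835). In Δ12/Δ12 the class and the labelled sex coincide in both labelled tissues. With the class as a covariate, the genotype estimate is therefore that of the labelled males alone.

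The other members had adjusted p above the threshold in labelled striatum, among them Atxn7 (log2 fold change 0.53, SE 0.18, adjusted p = 0.0504) and Atn1 (1.04, SE 0.39, adjusted p = 0.0611). Both showed the same split, with Atn1 at 3.32, 4.75 and 4.48 in the labelled males of Δ12/Δ12 and at 18.4, 21.2 and 19.8 in the labelled females, against 2.94 to 5.29 (median 4.36) in +/+. In labelled cortex 0 of 7 members passed by limma (2 at an unadjusted p under 0.05, Atxn7 and Cacna1a), against 0.924% of 15696 genes. Atxn7 had a log2 fold change of 0.63 (SE 0.19, adjusted p = 0.0697) and Cacna1a of 0.64 (SE 0.20, adjusted p = 0.0706). Without the +/+ library male 2, 2 members passed there, Atxn3 and Atxn7, in a fit that called 3844 of 15710 genes.

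The difference between Δ12/Δ12 and +/+ depended on the sex label, tested as an interaction. In labelled striatum the labelled males of Δ12/Δ12 had the female marker Xist at 14.0 to 24.5 FPKM as deposited, and the male marker Ddx3y at 0. Labelled female 1 had Xist at 40.4 and Ddx3y at 0.015. Labelled females 2 and 3 had Ddx3y at 6.37 and 6.44, and Xist at 0.35 and 0.60. The term therefore compares labels and not established sexes. In labelled striatum 5 of 7 members passed, against 55.8% of genes, and in labelled cortex 4 of 7 passed, against 43.9%. The estimates, female minus male, were 2.45 for Atn1 (SE 0.22, adjusted p = 1.43e-05), 0.97 for Atxn7 (SE 0.20, adjusted p = 0.00197) and -1.59 for Atxn3 (SE 0.34, adjusted p = 0.00284) in labelled striatum. These shares were close to those of all genes, and the labelled sexes of Δ12/Δ12 were also the expression classes.

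Between Δ12/+ and +/+, all 24 libraries were cortex-like, so that class did not differ, though composition could. The library labelled striatum Δ12/+ male 3 had the highest Drd2 of the class, a striatal neuron marker, at 18.5 FPKM as deposited (class median 0.92). Its Slc17a7, 120.8, was the lowest of the class. With each library left out, the count of members called in labelled striatum stayed at 0. In labelled striatum 0 of 7 members passed by limma (0 at an unadjusted p under 0.05), against 0.00663% of 15077 genes, and in labelled cortex 0 of 7 passed (0 unadjusted), against 0.0662% of 15095 genes. The precision differed between genes. For Cacna1a the 95% interval of the log2 fold change was -0.29 to 0.35 in labelled striatum and -0.14 to 0.27 in labelled cortex, for Atxn7 -0.35 to 0.29 and -0.37 to 0.07, and for Atxn2 -0.04 to 0.48 and -0.56 to 0.33. Tbp in labelled cortex had the largest estimate, 0.56 (SE 0.27, adjusted p = 0.61, interval -0.04 to 1.15): it measured 1.69 to 7.09 (median 5.65) in +/+ and 5.88 to 8.29 (median 7.46) in Δ12/+, and the groups overlapped. Atn1 in labelled cortex had an interval of -0.89 to 1.49, and its log2 fold change of 0.30 (SE 0.54) was -0.09 (SE 0.27) for the sum of both entries.

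**Figure D3:**
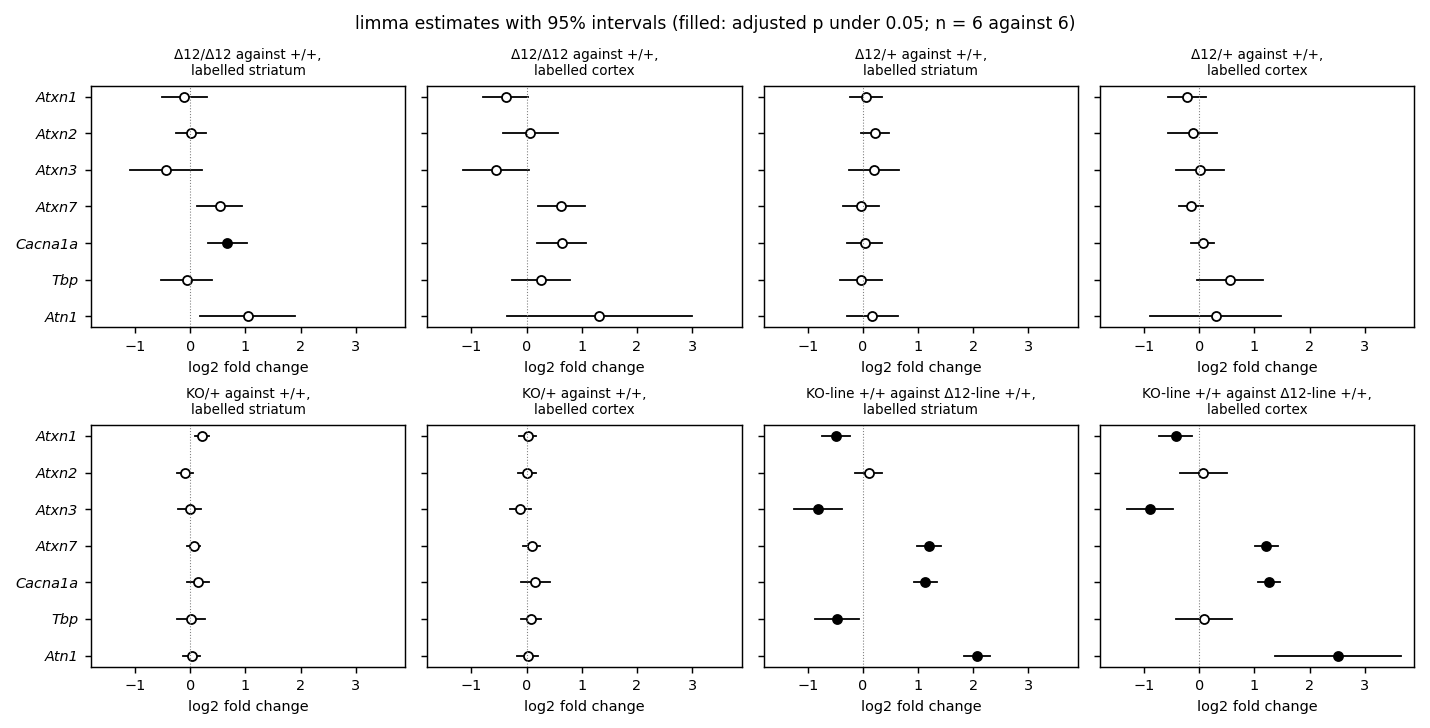
log2 fold changes of the 7 genes (horizontal axes) with 95% intervals for the genotype comparisons and the comparison of +/+ mice between lines in each labelled tissue, 6 libraries against 6, with filled points for adjusted p under 0.05 (limma). The 12 filled points are Cacna1a in Δ12/Δ12 (labelled striatum) and 11 in the panels between lines, where class and line coincide.

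Between KO/+ and +/+ of the KO line, all 24 libraries were striatum-like. In labelled striatum 0 of 7 members passed by limma (1 at an unadjusted p under 0.05), against 6.91% of 15808 genes. Of the 1093 called genes 555 were higher, and of 306 in the FPKM as deposited 23 were. The member with the unadjusted p was Atxn1, at 17.5, 19.1, 20.6, 18.7, 21.4 and 19.8 in +/+ and at 20.5, 21.2, 22.3, 24.7, 22.8 and 25.1 in KO/+. The groups overlapped between 20.5 and 21.4. Its log2 fold change was 0.22 (SE 0.06, interval 0.09 to 0.35, adjusted p = 0.0515), which passed with a pseudocount of 2 (adjusted p = 0.0378) and without the +/+ library male 3, and in the FPKM as deposited was 0.12 (adjusted p = 0.521). In labelled cortex 0 of 7 passed (0 unadjusted), against 0.0885% of 15820 genes, and Atxn1 had a log2 fold change of 0.02 (SE 0.07). The difference between the labelled tissues, as an interaction, was 0.20 (SE 0.09, adjusted p = 0.419) for Atxn1.

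The other 6 genes were measured closely in the KO line. In labelled striatum their log2 fold changes lay between -0.10 (Atxn2) and 0.14 (Cacna1a), and in labelled cortex between -0.12 (Atxn3) and 0.16 (Cacna1a). The widest 95% interval among them was that of Cacna1a in labelled cortex, -0.11 to 0.42. Htt itself did not pass in these fits (limma). Its log2 fold change was -0.144 (SE 0.11, adjusted p = 0.499) in labelled striatum and -0.065 (SE 0.091, adjusted p = 0.797) in labelled cortex. The intervals therefore describe the KO/+ labels and not an established loss of Htt.

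The KO/+ labels did not coincide with low Htt. Of 12 libraries labelled KO/+, 6 had Htt below 14 FPKM as deposited (11.7 to 12.6), 3 of them labelled striatum, and the 18 remaining libraries of the KO line, 6 of them labelled KO/+, had 15.2 to 18.1. This split uses a measured level, so the values are given without a test. Over all 15917 genes, 0.0188% had non-overlapping ranges between the 6 and the 18 libraries, and 0 of the 7 members did. Atxn1 measured 19.8, 23.2 and 24.8 in the low-Htt libraries labelled cortex and 21.2, 24.7 and 25.1 in those labelled striatum, and 17.5 to 22.8 (median 21.0) in the other 18. In 4 of 6 low-Htt libraries it exceeded all others. The low-Htt range of Atxn7 was 3.05 to 3.66 (median 3.32) against 2.68 to 3.33 (median 3.06), with 3 of 6 above all others. Cacna1a was 23.3 to 38.0 (median 30.5) against 20.4 to 32.2 (median 25.8), with 1 above. Atn1 was 17.5 to 23.3 against 16.6 to 21.8, and Atxn3 3.47 to 5.37 against 3.56 to 5.29. The low-Htt ranges of Atxn2 (24.4 to 30.0) and Tbp (4.91 to 5.45) lay inside those of the other 18. On the log2 scale the differences of medians ran from 0.01 (Atxn2) to 0.24 (Cacna1a). In the FPKM as deposited, where the median over all genes was -0.11, those of Atxn1 (-0.057), Atxn2 (-0.13), Atxn3 (-0.14), Tbp (-0.11) and Atn1 (-0.076) were below 0.

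**Figure D4:**
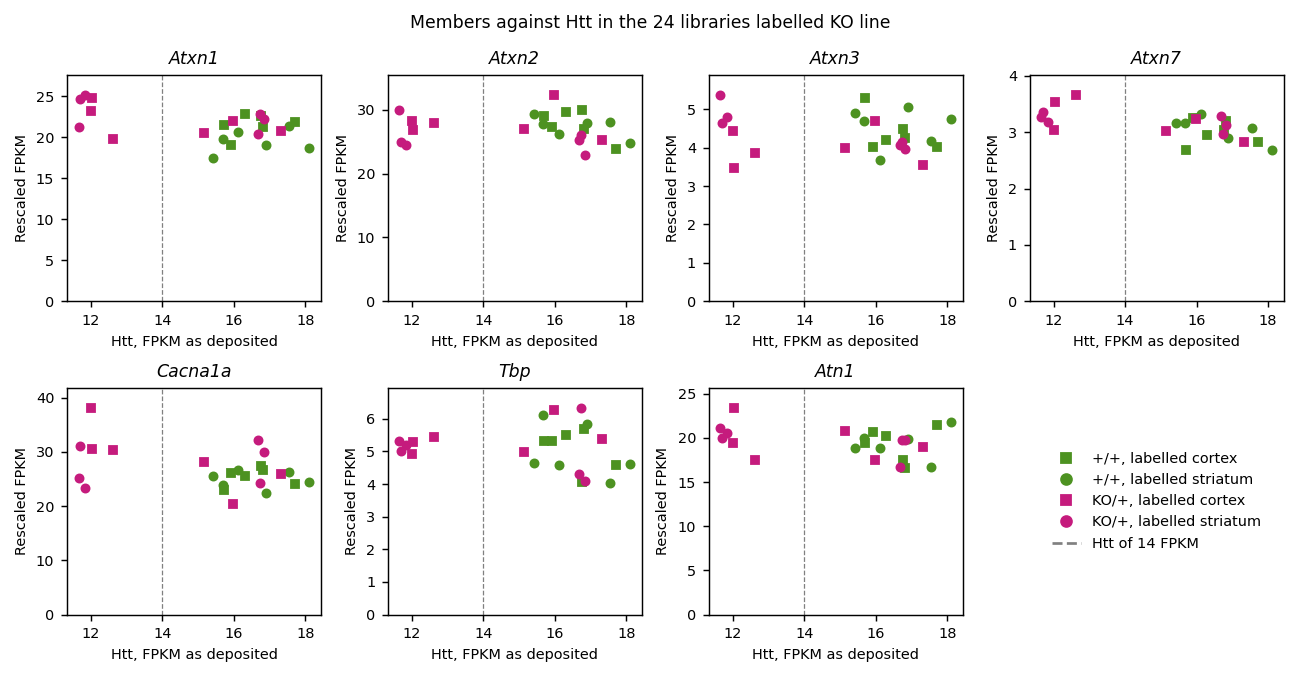
Rescaled FPKM of the 7 genes (vertical axes) against Htt in FPKM as deposited (horizontal axes) in the 24 libraries labelled KO line, in green for +/+ and pink for KO/+, with squares for labelled cortex and circles for labelled striatum, and a dashed line at 14 FPKM. The 6 libraries left of the line are all KO/+, and in no panel do they separate from the other 18.

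The comparison of +/+ mice between the lines involved no edited allele according to the labels, and line and class cannot be told apart in it. In labelled striatum 6 of 7 members passed, against 79.4% of 15712 genes (6588 of 12469 called genes higher, and 5000 of 12053 in the FPKM as deposited), and in labelled cortex 5 of 7, against 68% of 15800 genes. With this many genes called, the counts say little about the members. In labelled striatum, Atn1 was higher in the KO line by a log2 of 2.07 (SE 0.11, adjusted p = 9.15e-09), Atxn7 by 1.20 (SE 0.10, adjusted p = 3.45e-07) and Cacna1a by 1.13 (SE 0.09, adjusted p = 4.24e-07). Atxn3 was at -0.81 (SE 0.20, adjusted p = 0.00278), Atxn1 was at -0.49 (SE 0.11, adjusted p = 0.00187) and Tbp at -0.47 (SE 0.18, adjusted p = 0.032). In labelled cortex the same genes passed except Tbp (0.09, SE 0.23, adjusted p = 0.743). Atxn2 did not pass in either (0.11 and 0.07), and passed after quantile normalization in labelled striatum (0.53, adjusted p = 0.00198) and labelled cortex (0.51, adjusted p = 0.02). In the FPKM as deposited it was at -0.21 in labelled striatum (adjusted p = 0.0435). The Atxn1 call was lost after quantile normalization (adjusted p = 0.294 in labelled striatum and 0.863 in labelled cortex), and that of Tbp in labelled striatum without any 1 of 8 of the 12 libraries (adjusted p of 0.0513 to 0.0724). Between labelled striatum and labelled cortex over all 60 libraries, 0 of 7 members passed by limma (0 unadjusted), against 0% of 16076 genes (397 at an unadjusted p under 0.05).

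The partners of these proteins were read in the same fits. Between the +/+ mice in labelled striatum, all 5 ataxin-1 partners and all 3 ataxin-2 partners were higher in the KO line. Leading each list by adjusted p were Atxn1l, the paralog of ataxin-1 (2.43, SE 0.055, adjusted p = 8.16e-11), and Pabpc1, the poly(A)-binding protein (2.58, SE 0.07, adjusted p = 2.02e-10). Of 9 ataxin-7 and SAGA genes, 7 were higher and 1 lower, with Trrap, the scaffold subunit, at 1.24 (SE 0.08, adjusted p = 5.62e-08). Among 9 subunits and relatives of Cav2.1, 7 were higher and 1 lower, with Cacna1e, the pore of Cav2.3, at 1.24 (SE 0.07, adjusted p = 2.11e-08). For the 14 TFIID genes tested of 15 listed, whose products assemble with the TATA-binding protein, 3 were higher and 10 lower, with Taf6 at -0.87 (SE 0.09, adjusted p = 1.85e-06). Of 7 ataxin-3 partners, 2 were higher and 4 lower, and of 7 atrophin-1 partners, 4 were higher and 2 lower. These counts stand against the 79.4% of genes called.

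In the KO/+ comparison in labelled striatum, where 6.91% of genes passed, 4 of 9 Cav2.1 genes were higher and 0 lower, among them Cacna1e at 0.49 (SE 0.07, adjusted p = 0.00466), Cacna2d3 at 0.35 (SE 0.07, adjusted p = 0.0149) and Cacnb1 at 0.43 (SE 0.09, adjusted p = 0.0219). Baiap2, which binds atrophin-1, was at 0.53 (SE 0.10, adjusted p = 0.0126), and Josd1, a deubiquitinase related to ataxin-3, at 0.32 (SE 0.09, adjusted p = 0.0466). Of 8 striatal neuron markers, 6 were higher in the same comparison, and of 4 oligodendrocyte markers 3 were lower. Their part in these values was not tested. In labelled cortex none of the 9 Cav2.1 genes passed, with a median log2 fold change of 0.075.

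To describe which genes followed each member, Pearson correlations over the 60 libraries were taken on the log2 scale after subtracting the class mean. Libraries share depth and composition, so these are descriptions. The highest were Nbea (0.89), Tasp1 (0.87) and Spred2 (0.85) with Atxn1, Rnf26 (0.85), Cyth1 (0.83) and Rnf215 (0.83) with Atn1, and Rasa2 (0.78), Cdc14b (0.77) and Arih1 (0.75) with Atxn3. For Atxn2 they were Mpzl1, Gigyf2 and Pdss2 (all 0.71), for Tbp Mok (0.71), Vrk3 (0.70) and Gspt2 (0.69), for Cacna1a Ccdc187 (0.64), Ice1 (0.60) and Nav2 (0.59), and for Atxn7 RP23-361O12.4 (0.60), Tnk2 (0.59) and Rnf165 (0.56). These 21 genes were picked over both classes together, and each member varied more in the cortex-like class, which therefore weighs more in the choice. Of the 21 genes, 18 correlated more highly within the 30 cortex-like libraries, a count that the choice itself favors. Tasp1, for example, correlated with Atxn1 at 0.955 there, against 0.33 within the 30 striatum-like libraries. The exceptions were Ice1 (0.54 and 0.77) and Nav2 (0.58 and 0.61) with Cacna1a, and RP23-361O12.4 (0.59 and 0.62) with Atxn7. Between members, Atxn1, Atxn2 and Atxn3 correlated with each other at 0.69 to 0.73 in the cortex-like and at -0.15 to 0.04 in the striatum-like class, and Tbp and Atn1 at 0.71 and 0.11. All values with Atn1 over the cortex-like class or all libraries include the library with the uncertain Atn1 level of 5.9e-05. They were not taken without it or for the sum of both entries. Within the striatum-like class Rnf26 correlated with Atn1 at 0.26, Cyth1 at 0.13 and Rnf215 at 0.43.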

How the data were processed

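Total RNA (RNeasy) was depleted of rRNA, prepared with the NEBNext Ultra II Directional kit and sequenced on a NovaSeq6000. Per library, a table of FPKM for each gene entry, with interval bounds, was deposited by the authors. The submitters' processing notes name bcl2fastq 2.20, Trimmomatic 0.30, TopHat2 2.0.14, SAMtools 1.3, HTSeq 0.6.1p1 and GRCm38.p4, and the annotation release is not given in the sources used here. Of 47597 entries, 23 with a status other than OK were dropped.

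FPKM were divided by each library's median ratio over 13235 entries above 0 in every library. Without counts, limma 3.58.1 (R 4.3.3) was fitted on log2(rescaled FPKM + 0.5) for genes with a mean of at least 0.5, in the 12 libraries compared, with labelled sex as covariate (all 60 libraries for tissue), and genes under an adjusted p of 0.05 were called. SE and 95% intervals are those of limma. The labels do not say whether libraries of a group came from separate extractions, so p-values measure the spread between these samples. The members and gene lists were chosen with earlier results of these data known. Named are the 7 members, Htt and Slc17a7, for each list at most 3 genes, those of lowest adjusted p, and the 3 genes most correlated with each member (mean of at least 1). Class and low-Htt values were not tested. For 1 library, striatum KO/+ female 3, title and genotype label disagree, and the genotype label was used. Depth was estimated from the interval bounds. On simulated data with the spread of Δ12/Δ12 against +/+ in labelled striatum (15467 genes), calls were made for 65 of 100 altered genes at a log2 change of 1, and for 12 of 100 at 0.5. For KO/+ (15808 genes) these numbers were 92 and 73. The simulated noise was normal and independent between genes and libraries, without the class split within Δ12/Δ12. Only genes above a minimum +/+ level were altered, so these numbers may not hold for the members. Codon runs were read from GENCODE M21 transcripts, as no protein table was used here, and that of Atn1 is not reported here. Alternatives were another scaling, pseudocount, filter, covariate, replicate block, sample set, summed Atn1 entries and each library left out. Figures were drawn with matplotlib.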

Additional observations from a re-analysis of the deposited data

Results flagged for a closer look

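Within a group of 6, Atxn3 in the library labelled cortex KO line +/+ male 3 measured 5.29 rescaled FPKM, above the 4.02 to 4.49 of the other 5, and Atn1 in striatum KO/+ male 1 measured 16.7, below the 19.7 to 21.1 of the other 5. In both the gap to the nearest library exceeded 0.625 of the range of the group. Among 70 sets of 6 values, 2 stood apart in this way, where chance gives about 1 in 20.

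The change from +/+ to Δ12/Δ12 differed between labelled sexes by limma's interaction term. In labelled striatum the difference, female minus male on the log2 scale, was -0.95 for Atxn1 (adjusted p = 0.00472), -1.59 for Atxn3 (adjusted p = 0.00284), 0.97 for Atxn7 (adjusted p = 0.00197), 0.67 for Cacna1a (adjusted p = 0.0299) and 2.45 for Atn1 (adjusted p = 1.43e-05). In labelled cortex it was -1.18 for Atxn3 (adjusted p = 0.0376), 0.99 for Atxn7 (adjusted p = 0.0031), 1.03 for Cacna1a (adjusted p = 0.00328) and 4.07 for Atn1 (adjusted p = 0.00739). The labelled females of Δ12/Δ12 were striatum-like and the labelled males cortex-like, and labelled sex and class cannot be told apart there. In labelled striatum the call of Cacna1a was lost without any 1 of 8 libraries (adjusted p of 0.0543 to 0.0699), and in labelled cortex that of Atxn3 without any 1 of 8 (adjusted p of 0.0503 to 0.0888). In the FPKM as deposited, Cacna1a lost its call in labelled striatum (0.51, adjusted p = 0.113) and in labelled cortex (0.48, adjusted p = 0.131), as did Atxn7 in labelled cortex (0.57, adjusted p = 0.15). Without the filter on low values, Atxn3 in labelled cortex had an adjusted p of 0.0534. With the 2 Atn1 entries summed, an alternative chosen after the data were seen, the difference for Atn1 in labelled cortex was 3.30 (SE 0.49).

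The second Atn1 entry reached 1.95 in the library labelled cortex +/+ female 1 of the Δ12 line, and at most 0.213 elsewhere.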

How the results depend on the processing

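The count of members called between Δ12/Δ12 and +/+ in labelled striatum, 1 as reported, was 0 with a replicate block, 0 without the sex covariate, 0 with the class as covariate and 3 with all 30 libraries of the labelled tissue (Atxn7, Cacna1a and Atn1), where 8067 of 15904 genes were called. It ran from 0 to 3 with each library left out. In labelled cortex the count of 0 was 5 with all 30 libraries, where 7972 of 16041 genes were called, and 0 to 2 with each library left out, the 2 in a fit that called 3844 of 15710 genes. For KO/+ in labelled striatum the count of 0 was 1 with a pseudocount of 2 and 0 to 1 with a library left out. The counts between the +/+ mice of both lines were 5 to 6 in labelled striatum and 5 in labelled cortex, and for the interaction with labelled sex 4 to 5 in labelled striatum and 3 to 5 in labelled cortex, with a library left out. Over all genes, the 4381 calls in Δ12/Δ12 in labelled striatum were 2085 without the filter, 5 with the replicate block, and 5 to 6208 with a library left out, and the 145 in labelled cortex were 60 after quantile normalization, 90 with a pseudocount of 0.1, 25 without the filter, 9 with the block, 10 without the sex covariate, 12 with the class as covariate and 12 to 3844. The 1093 for KO/+ in labelled striatum were 306 in the FPKM as deposited, 302 with the block, 135 with all 30 libraries and 560 to 1243. The 14 in labelled cortex were 110 in the FPKM as deposited, 28 without the filter, 0 with the block, 1 with all 30 libraries and 1 to 19, and the 10 for Δ12/+ in labelled cortex were 22 after quantile normalization, 6 with a pseudocount of 0.1, 3 with the block, 53 with all 30 libraries and 5 to 41. Δ12/+ in labelled striatum had 0 to 2. Called members kept their call in 143 and lost it in 9 cases under the alternatives that keep every library. These alternatives gave no other change of a count by over 1.5 times.

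Same-numbered libraries did not pair: their deviations correlated at -0.215 to 0.086 within the genotype comparisons. With the replicate block Cacna1a had an adjusted p of 0.158 at a log2 of 0.67, and the block changed no other call in the comparisons it was run in.

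By class, log2 differences of medians in the FPKM as deposited were -0.78 for Atxn1, -0.24 for Atxn2, 1.02 for Atxn7, 0.85 for Cacna1a and -0.73 for Tbp. After quantile normalization they were -0.035 for Atxn1, 0.48 for Atxn2, 1.09 for Atxn7 and 1.49 for Cacna1a. By Htt, in the FPKM as deposited, they were -0.057 for Atxn1, -0.13 for Atxn2, -0.14 for Atxn3 and 0.031 for Cacna1a. The FPKM as deposited moved the median class difference over all genes from 0.03 to -0.19. The cause was not tested. Of the 7 genes Atn1 had the widest deposited interval, 35.4% in the cortex-like class.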
